A study of Mus musculus with 8 samples.

Results

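The thin filaments, thick filaments, Z-discs and M-bands of heart muscle were followed through 32 genes that encode their structural proteins, among 22180 genes measured in the mouse left ventricle. The genes were taken by name. Each was read from the probe set that carries its symbol alone, and all 32 were found, on 33 probe sets. Only Trim54 had a further probe set, and the one with the higher mean was used. Microarrays recorded 4 reproductive states, 2 arrays each, in female C57BL/6 mice of 3 to 4 months without any transgene or drug in the labels. The controls were non-pregnant mice in diestrus, a phase of the estrous cycle (replicates 2 and 3). The others were mice at day 12 of pregnancy (replicates 2 and 3), mice at day 19 (replicates 1 and 2; the protocol gives this group as 18/19 days) and mice at day 1.5 after birth, called post-partum (replicates 2 and 4). The left ventricle had been cut into 3 pieces, of which 1 was used, and the labels do not say which animal each array came from. P-values therefore measure the spread between these samples, which may be technical in part.

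A sarcomere is the repeating contractile unit of striated muscle. Actin-based thin filaments are anchored in the Z-disc at each end, and myosin-based thick filaments are held in register by the M-band in the middle, with titin spanning from one to the other. Troponin and tropomyosin on the thin filament switch contraction on when calcium rises. Z-disc proteins also sense stretch, and mutations in many of these genes cause cardiomyopathy. Pregnancy enlarges the heart by adding sarcomeres while the volume of blood rises, and the enlargement regresses after birth.

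Values are log2 intensities after RMA, a method that equalises the arrays, so a difference of 1 log2 unit is 2-fold. They ran from 1.37 to 13.32 over the whole table. They compare 1 gene between arrays and give no ranking of 1 gene against another. All 32 members passed the filter on low values and stood among the 13872 genes tested. Among 14 cardiomyocyte genes outside the sarcomere, such as the ryanodine receptor and phospholamban, the mean lay between 10.83 and 11.17 on every array; atrial and ventricular myocytes both express them. The ventricular markers Myl2 and Irx4, looked up after the other values were seen, ranged from 8.46 to 8.87 and from 8.06 to 8.88 over the 8 arrays. Markers of other cells were uneven between arrays. Diestrus replicate 3, day 12 replicate 3 and day 19 replicate 1 carried atrial transcripts. The atrial light chain Myl7, by which these 3 arrays were picked, was 8.24, 10.04 and 11.76 there. On the other 5 arrays it was between 4.56 and 5.12. Of 7 atrial markers, 5, including Myl7, were higher on all 3 than on any other array, against 3.11% of all genes tested. The exceptions were Bmp10 and Nppa. Nppa was 11.03 on diestrus replicate 3 and 11.13 on day 12 replicate 3, below its 11.21 to 12.02 on the other 5 arrays. The atrial mean per array was 6.32 and 7.34 in diestrus, 6.11 and 7.77 at day 12, 9.44 and 6.37 at day 19, and 6.19 and 6.28 post-partum. Day 19 replicate 2 carried the highest value of 9 of 9 macrophage and leukocyte markers and of 7 of 8 interferon-induced genes. Its leukocyte mean was 9.43, against 7.63 to 8.11 on the others. That array also held the lowest value of 6 of 8 fibroblast, 5 of 6 endothelial and 5 of 7 smooth muscle markers, against 32.1% of all genes tested. It was also the array with the lowest correlation to the rest over all probe sets (0.969 to 0.977). All 8 fibroblast markers were lower at day 12 than in diestrus, beside 44.9% of all genes tested. In whole tissue, fewer cells of a type and less RNA per cell cannot be told apart.

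Promoter sequences show which muscle motifs stand before the members. They are taken from RefSeq on build GRCm38.p6, which has an entry for 26 of the 32 members; Lmod3, Myot, Neb, Tcap, Nexn and Myom2 are named only. For a gene with several starts the first entry of the table was used, and the 250 bases before the start were searched on both strands. The 4 motifs were the CArG box, bound by serum response factor, the MEF2 site, the TATA motif TATAAA, and CATTCC, the core bound by TEAD factors. A CArG box was found before 3 of the 26 members (Fhl2, Ldb3 and Myom1), against 1.40% of the 27025 promoters in the table. A MEF2 site stood before 5 members (Fhl2, Mybpc3, Myoz2, Synpo2l and Ttn), against 3.01%. CATTCC was present before 7 members, against 12.6%, and TATAAA before 1, against 13.0%. Shown are the members with an entry that had an unadjusted p under 0.05 in a comparison (Flnc, Trim54 and Ldb3), Fhl2 because it holds 3 of the 4 motifs, and Pdlim3 because its values followed the atrial markers. Each is written 5′ to 3′ in the direction of the gene, with motif matches in capitals.
Flnc, chr6:29432903-29433152, plus strand: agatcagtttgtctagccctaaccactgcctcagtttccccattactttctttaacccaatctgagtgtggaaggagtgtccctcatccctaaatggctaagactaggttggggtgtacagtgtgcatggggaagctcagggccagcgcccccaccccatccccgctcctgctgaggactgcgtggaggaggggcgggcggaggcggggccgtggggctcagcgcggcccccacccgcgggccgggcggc
Trim54, chr5:31116362-31116611, plus strand: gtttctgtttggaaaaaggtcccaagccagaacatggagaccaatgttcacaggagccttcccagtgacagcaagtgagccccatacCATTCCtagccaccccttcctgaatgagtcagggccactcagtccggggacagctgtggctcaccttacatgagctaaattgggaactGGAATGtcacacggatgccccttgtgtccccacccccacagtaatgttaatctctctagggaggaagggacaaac
Ldb3, chr14:34588682-34588931, minus strand: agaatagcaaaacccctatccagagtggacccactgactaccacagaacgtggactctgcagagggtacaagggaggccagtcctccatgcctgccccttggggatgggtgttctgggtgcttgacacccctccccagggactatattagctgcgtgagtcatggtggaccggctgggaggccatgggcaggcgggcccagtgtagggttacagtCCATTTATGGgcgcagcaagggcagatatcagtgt
Fhl2, chr1:43196762-43197011, minus strand: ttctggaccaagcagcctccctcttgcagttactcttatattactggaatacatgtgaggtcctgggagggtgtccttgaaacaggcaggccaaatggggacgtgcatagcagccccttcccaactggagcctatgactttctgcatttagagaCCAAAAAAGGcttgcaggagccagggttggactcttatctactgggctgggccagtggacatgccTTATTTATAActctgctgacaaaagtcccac
Pdlim3, chr8:45885237-45885486, plus strand: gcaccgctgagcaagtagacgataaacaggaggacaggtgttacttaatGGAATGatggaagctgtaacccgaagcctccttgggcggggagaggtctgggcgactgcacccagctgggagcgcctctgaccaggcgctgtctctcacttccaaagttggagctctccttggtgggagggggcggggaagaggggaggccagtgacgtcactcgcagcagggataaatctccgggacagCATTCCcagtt
In Ldb3 the capitals are the CArG box CCATTTATGG, 35 to 26 bases before the start. In Fhl2 the first run is the CArG box CCAAAAAAGG and the second is the MEF2 site TTATTTATAA, which overlaps the TATAAA match on the other strand. Trim54 and Pdlim3 each hold CATTCC once on either strand. None of the 4 motifs was found in the Flnc window. A match is a string of letters and no measurement of binding.

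No member passed the threshold of adjusted p 0.05 in any of 5 comparisons (limma, Benjamini-Hochberg over 13872 genes), as no gene did in these fits: the share called was 0.0% each time. At an unadjusted p under 0.05 stood 321 to 1145 genes by comparison. A p that misses the threshold does not show that the states were alike, so intervals are given. The 32 members together averaged 10.34 ± 0.017 in the diestrus group (SD, n = 2 arrays), 10.43 ± 0.048 in the day 12 group, 10.35 ± 0.16 in the day 19 group and 10.45 ± 0.057 in the post-partum group. By array it was 10.36 and 10.33 in diestrus, 10.46 and 10.39 at day 12, 10.46 and 10.23 at day 19, and 10.49 and 10.41 post-partum. The day 12 and post-partum arrays were all above both diestrus arrays, while the day 19 arrays lay on either side. The day 19 group shows the widest gap, and its low array is the one with the leukocyte markers; the part of those cells in the result was not tested. That array held the lowest value of 14 of the 32 members, against 32.1% of all genes tested, and the lowest value of 8 of the 14 other cardiomyocyte genes. Post-partum replicate 2 held the highest value of 9 members, against 19.1% of all genes tested, and of 6 of those 14 genes.

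**Figure D1:**
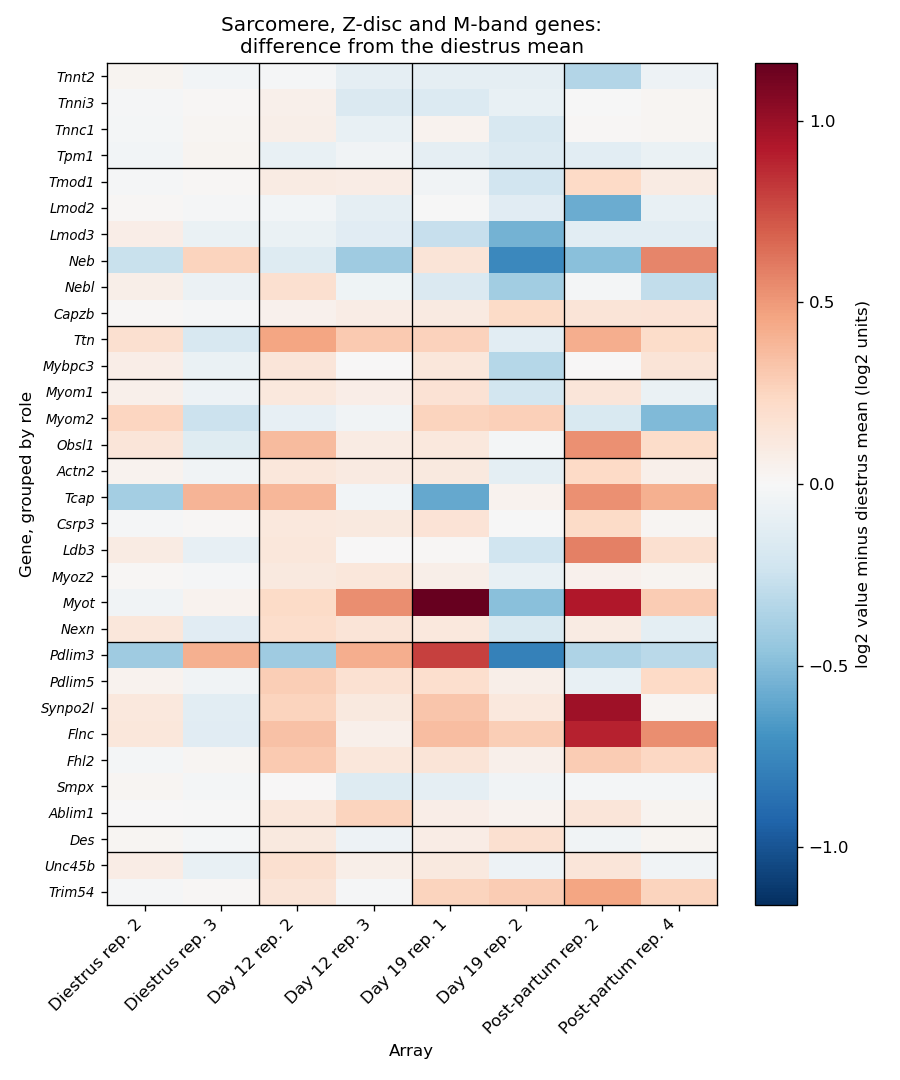
Each row is 1 of the 32 genes, grouped by role, and each column 1 array; colour gives the log2 value minus the mean of the 2 diestrus arrays. Most cells are pale, with the strongest colours in Myot, Pdlim3, Synpo2l, Flnc and Neb.

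Against diestrus, the other cardiomyocyte genes were higher post-partum like the members, higher by less than the members at day 12, and lower at day 19. They averaged 11.03 for the diestrus arrays, 11.06 for day 12, 10.93 for day 19 and 11.13 for the post-partum arrays. Members minus these genes gave -0.68 for diestrus, -0.63 for day 12, -0.58 for day 19 and -0.68 for post-partum. The post-partum difference of the members from diestrus, 0.11 on the log2 scale, was thus -0.00075 when taken relative to the other cardiomyocyte genes. At day 12 the difference was 0.083 as deposited and 0.046 relative to them. At day 19 it was 0.00025 as deposited, -0.068 with each array centred on its median and 0.099 relative to the cardiomyocyte genes, so its sign is not settled.

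**Figure D2:**
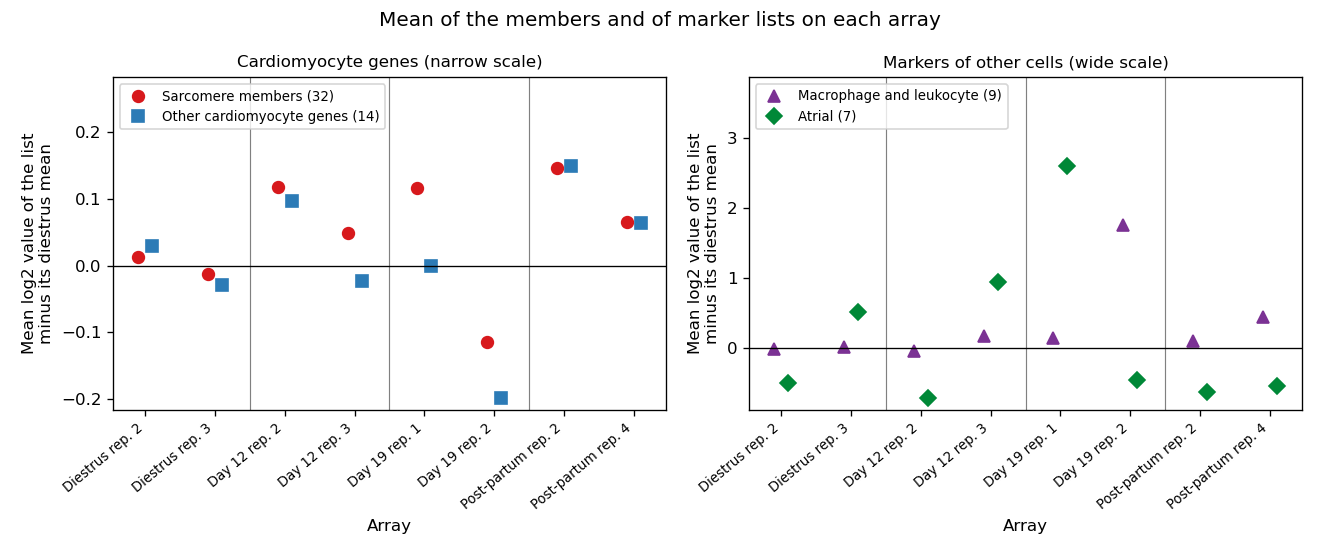
The left panel shows the mean log2 value of the 32 members and of 14 other cardiomyocyte genes on each array, minus the diestrus mean of each list; the right panel shows leukocyte and atrial markers on a wider scale. The cardiomyocyte lists lie lowest on day 19 replicate 2, where the leukocyte markers are highest, and the atrial markers stand out on 3 arrays.

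Genes of the regulatory proteins of the thin filament ranged over 0.19 (Tpm1) to 0.38 (Tnnt2) log2 units across the 8 arrays. Cardiac troponin T (Tnnt2), which ties troponin to tropomyosin, was 12.96 and 12.89 in diestrus, 12.91 and 12.82 at day 12, 12.82 and 12.82 at day 19 and 12.58 and 12.87 post-partum. The post-partum difference from diestrus was -0.20 ± 0.14 (log2, SE; n = 2 arrays per group here and below), with both arrays below both diestrus arrays. Troponin I (Tnni3), the inhibitory subunit, ranged over 0.22 log2 units across the 8 arrays, and troponin C (Tnnc1), which binds calcium, over 0.25. The tropomyosin Tpm1 ranged over 0.19 and was lower than both diestrus arrays in all 3 other states, by no more than 0.13. All 4 genes gave a value below 0 at day 12 and at day 19 against diestrus, with medians of -0.057 and -0.11, while 55.1% and 44.5% of all genes tested were above 0.

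Genes that set the length of the thin filament and cap its ends ranged more widely, apart from Capzb (0.23). The leiomodins lengthen thin filaments at the pointed end. Lmod2 stood at 12.22 and 12.20 in diestrus, 12.18 and 12.11 at day 12, 12.21 and 12.08 at day 19 and 11.63 and 12.13 post-partum, and its post-partum difference of -0.33 ± 0.18 was -0.085 without post-partum replicate 2. Lmod3 stood at 9.09 and 8.93 in diestrus, 8.93 and 8.88 at day 12, 8.74 and 8.46 at day 19 and 8.88 and 8.89 post-partum. Both day 19 arrays of Lmod3 lay below all 6 other arrays, and its difference from diestrus was -0.41 ± 0.14 (adjusted p = 0.657; 95% interval -0.74 to -0.072). Leaving out each array in turn, this value ran from -0.55 to -0.26. Nebulette (Nebl), a cardiac relative of nebulin at the Z-disc, was 9.96 and 9.82 in diestrus, 10.08 and 9.84 at day 12, 9.73 and 9.49 at day 19 and 9.86 and 9.60 post-partum. At day 19 it was below diestrus by -0.28 ± 0.16 and below day 12 by -0.35 ± 0.16.

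The giant scaffold nebulin (Neb), prominent in skeletal muscle, varied more between replicates than between states: 6.01 and 6.53 in diestrus, 6.13 and 5.86 at day 12, 6.43 and 5.53 at day 19, and 5.79 and 6.84 post-partum. The groups overlapped in all 5 comparisons. Tropomodulin (Tmod1), which caps the pointed end, was 10.39 and 10.41 in diestrus, 10.50 and 10.49 at day 12, 10.37 and 10.18 at day 19 and 10.63 and 10.50 post-partum. Its values were lower at day 19 than in every other state, and the difference between post-partum and day 19 was 0.29 ± 0.13. Capzb, the beta subunit of the barbed-end capping protein found in most cell types, went the other way, at 10.94 and 10.92 in diestrus, 10.98 and 11.02 at day 12, 11.03 and 11.15 at day 19 and 11.07 and 11.09 post-partum. Its highest value was on day 19 replicate 2, and all 6 arrays of the other states were above diestrus. At day 19 against diestrus, 5 of these 6 genes were below 0, while 44.5% of all genes tested were above 0. Without day 19 replicate 2, Neb turned to 0.15.

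Titin (Ttn), the elastic protein that spans from Z-disc to M-band, was 11.72 and 11.35 in diestrus, 12.00 and 11.84 at day 12, 11.81 and 11.41 at day 19 and 11.95 and 11.75 post-partum. Both day 12 and both post-partum arrays exceeded both diestrus arrays. The day 12 difference, 0.38 ± 0.19 or 1.30-fold, had an adjusted p of 1.00 and ran from 0.20 to 0.57 as each array was left out. From day 12 to day 19 the difference was -0.31 ± 0.19. The myosin-binding protein Mybpc3, which braces the thick filament, ranged over 0.48, from 11.37 on day 19 replicate 2 to 11.85 on post-partum replicate 4, and no state was separate from diestrus.

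In the M-band, myomesin 2 (Myom2), a crosslinker of thick filaments, took another course than Myom1 and Obsl1. It was 11.03 and 10.54 in diestrus, 10.69 and 10.75 at day 12, 11.05 and 11.06 at day 19 and 10.61 and 10.28 post-partum. The day 19 arrays were the highest of all 8 and agreed closely, and both post-partum arrays lay below both. Post-partum minus day 19 was -0.61 ± 0.19, or 1.52-fold lower (adjusted p = 0.589; 95% interval -1.05 to -0.16), and -0.77 to -0.44 as arrays were left out. Against diestrus the values were 0.27 ± 0.19 at day 19 and -0.34 ± 0.19 post-partum, and at day 19 the value was 0.021 without diestrus replicate 3. Its relative Myom1 ranged over 0.38 and was lowest on day 19 replicate 2. Obscurin-like 1 (Obsl1), which links myomesin and titin, was 7.07 and 6.79 in diestrus, 7.30 and 7.03 at day 12, 7.05 and 6.91 at day 19 and 7.46 and 7.14 post-partum, so that both post-partum arrays lay above both diestrus arrays by a mean of 0.37 ± 0.18.

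Among the core proteins of the Z-disc, Ldb3 (also called Cypher or ZASP), which binds alpha-actinin, was 10.68 and 10.49 in diestrus, 10.72 and 10.59 at day 12, 10.59 and 10.35 at day 19 and 11.17 and 10.77 post-partum. Both post-partum arrays were above the other 6. The difference was 0.50 ± 0.18 from day 19, or 1.41-fold (adjusted p = 0.589; 95% interval 0.087 to 0.91), and 0.39 ± 0.18 from diestrus. Telethonin (Tcap), which caps the end of titin, was 9.73 and 10.52 in diestrus, 10.51 and 10.10 at day 12, 9.54 and 10.17 at day 19 and 10.65 and 10.54 post-partum. Its post-partum arrays were again the highest 2 of the 8, with 0.74 ± 0.30 over day 19 or 1.67-fold (adjusted p = 0.589). Its diestrus arrays differed by 0.79, and its day 19 difference from diestrus, -0.27 ± 0.30, turned to 0.12 without diestrus replicate 3.

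Alpha-actinin 2 (Actn2), the crosslinker of actin at the Z-disc, ranged over 0.34, with day 12 and post-partum arrays above both diestrus arrays by a mean of 0.12 and 0.15. The muscle LIM protein gene Csrp3 gave 0.12 in both of these comparisons, and Myoz2, which tethers calcineurin to the Z-disc, gave 0.12 and 0.044. Nexilin (Nexn) gave 0.18 at day 12 and -0.0074 post-partum. All 7 core genes were above 0 at day 12 against diestrus, beside 55.1% of all genes tested. All 7 were lower at day 19 than at day 12, beside 57.2% of all genes tested, and all 7 were higher post-partum than at day 19, beside 52.3%. The medians were 0.12, -0.13 and 0.14. The last 2 counts changed without day 19 replicate 2: 5 of 7 were lower than at day 12 (49.9% of all genes tested). Post-partum, 3 of 7 were then higher, Actn2, Ldb3 and Tcap (45.6%). Other arrays mattered too. Post-partum replicate 4 alone was below the day 19 mean for Csrp3, Myot and Nexn. At day 12 both values of Tcap (10.51 and 10.10) lay below diestrus replicate 3 (10.52). The day 12 mean of Ldb3 (10.65) lay below diestrus replicate 2 (10.68). Without day 19 replicate 2 the mean over all 32 members was 0.033 for day 19 against day 12 and -0.0095 for post-partum against day 19.

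Myotilin (Myot), an actin-bundling protein of the Z-disc, had the widest range of all members, 1.64. It was 8.90 and 8.98 in diestrus, 9.17 and 9.48 at day 12, 10.10 and 8.46 at day 19 and 9.87 and 9.23 post-partum. Day 12 and post-partum arrays were above diestrus, by 0.38 ± 0.47 and 0.61 ± 0.47, while the day 19 arrays fell on opposite sides. The day 19 difference was 1.16 without replicate 2 and -0.48 without replicate 1.

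Of the actin-binding and LIM proteins around the Z-disc, filamin C (Flnc), which crosslinks actin and is recruited to damaged sarcomeres, gave the clearest difference of any member. It was 9.68 and 9.42 in diestrus, 9.89 and 9.61 at day 12, 9.91 and 9.84 at day 19 and 10.44 and 10.09 post-partum. Both post-partum arrays were above the other 6, and both day 19 arrays were above both diestrus arrays. Post-partum against diestrus gave 0.72 ± 0.18, or 1.64-fold (adjusted p = 0.722; 95% interval 1.23-fold to 2.19-fold), and 0.54 to 0.89 as arrays were left out. The differences from diestrus were 0.20 ± 0.18 at day 12 and 0.32 ± 0.18 at day 19. Synpo2l, an actin-bundling protein of the Z-disc, was 8.89 and 8.64 in diestrus, 9.02 and 8.88 at day 12, 9.09 and 8.89 at day 19 and 9.74 and 8.79 post-partum. Its post-partum difference of 0.50 ± 0.29 came from replicate 2 and was 0.021 without it.

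Fhl2, a LIM protein that docks signalling and metabolic enzymes on the sarcomere, was 11.86 and 11.92 in diestrus, 12.20 and 12.03 at day 12, 12.04 and 11.95 at day 19 and 12.18 and 12.14 post-partum. All 6 arrays outside diestrus were above both diestrus arrays, by 0.22, 0.11 and 0.27 in turn. Pdlim5, a PDZ and LIM adaptor that binds protein kinase C, was 9.35 and 9.26 in diestrus, 9.59 and 9.49 at day 12, 9.50 and 9.38 at day 19 and 9.22 and 9.54 post-partum. Both day 12 arrays (0.23 ± 0.15) and both day 19 arrays (0.13) lay above diestrus, and the post-partum arrays lay on either side. Smpx, a small muscle protein, was 9.35 and 9.31 in diestrus, 9.33 and 9.18 at day 12, 9.23 and 9.29 at day 19 and 9.31 and 9.30 post-partum, the narrowest range of any member at 0.17. The actin-binding LIM protein Ablim1 ranged over 0.26. Like Fhl2, Capzb and Ablim1 were above both diestrus arrays in all 3 other states. Of all genes tested, 21.7% were so at day 12, 16.4% at day 19 and 21.1% post-partum. The share in all 3 states at once was not computed.

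Pdlim3, the actinin-associated LIM protein, followed another division of the arrays. It was 8.32 and 9.15 in diestrus, 8.32 and 9.16 at day 12, 9.53 and 7.95 at day 19 and 8.38 and 8.43 post-partum. Its 3 high values, 9.15 to 9.53, belong to the 3 arrays with atrial transcripts, and the other 5 lay between 7.95 and 8.43. It was the single member of 32 with this order. Among all genes tested 3.11% shared it, a share like that of the members, so the list did not stand out in this. The group means of Pdlim3 differed from diestrus by 0.00091 at day 12 and 0.0048 at day 19; each of these 3 groups holds 1 array with atrial transcripts and 1 without. Post-partum, where neither array carried atrial transcripts, the difference was -0.33 ± 0.52, and 0.082 without diestrus replicate 3. Myot shared the highest array, day 19 replicate 1, but was also 9.87 on post-partum replicate 2, where Myl7 was 4.63. The part of atrial tissue in either gene was not tested.

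**Figure D3:**
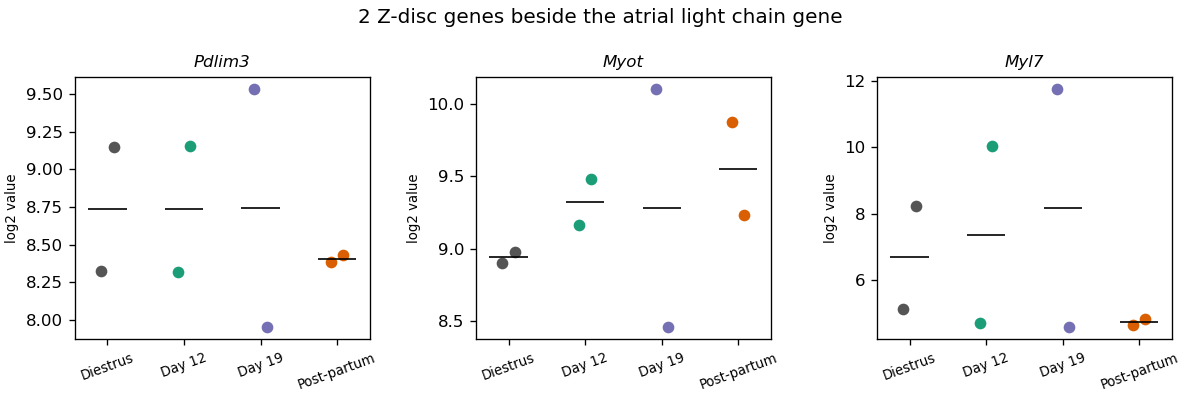
Log2 values of Pdlim3, Myot and the atrial light chain gene Myl7; each point is 1 array, with the lower replicate number on the left of each pair, and bars are group means. Pdlim3 is high on the same 3 arrays as Myl7, and Myot only in part.

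Desmin (Des), the intermediate filament that ties Z-discs together, was 12.22 and 12.18 in diestrus, 12.31 and 12.14 at day 12, 12.29 and 12.39 at day 19 and 12.16 and 12.23 post-partum, with a day 19 difference of 0.14 ± 0.13 from diestrus. Of the genes of sarcomere assembly and turnover, the myosin chaperone Unc45b ranged over 0.27. Trim54 (MuRF3), a ubiquitin ligase of the Z-disc and microtubules, was 8.51 and 8.53 in diestrus, 8.67 and 8.51 at day 12, 8.78 and 8.81 at day 19 and 8.98 and 8.78 post-partum. The day 19 and post-partum arrays were all above the other 4. The differences from diestrus were 0.28 ± 0.14 at day 19 and 0.36 ± 0.14 post-partum, or 1.28-fold (adjusted p = 0.657 and 0.722). These ran from 0.26 to 0.29 and from 0.25 to 0.46 as arrays were left out. The second Trim54 probe set, dim at 4.47 to 5.11, was also highest on the post-partum arrays.

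**Figure D4:**
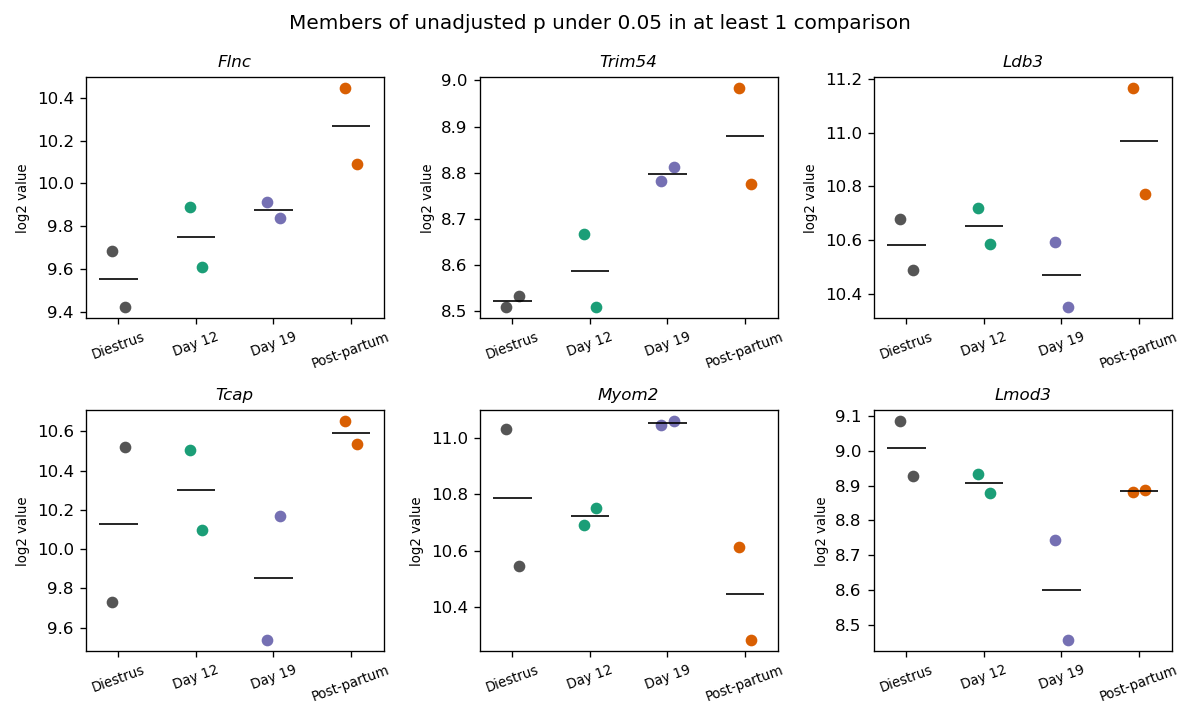
Log2 values of the 6 members with an unadjusted p under 0.05 in at least 1 comparison; each point is 1 array, with the lower replicate number on the left of each pair, and bars are group means. Flnc and Ldb3 are highest post-partum, Myom2 is highest and Lmod3 lowest at day 19.

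Mid-pregnancy was addressed by day 12 against diestrus. None of the 32 members had an unadjusted p under 0.05, against 2.31% of all genes tested (1.22% higher and 1.1% lower). There were 2 such members with the replicate block and 1 with array weights. The share of all genes tested was not computed for those fits. At a value above 0 stood 23 members, against 55.1% of all genes tested. With 1 array of either group left out the count ran from 19 to 25. It was 19 (53.0% of all genes tested) without day 12 replicate 2 and 25 (55.8%) without day 12 replicate 3. In 12 members both day 12 arrays lay above both diestrus arrays (37.5%; 21.7% of all genes tested), and in 2, Lmod2 and Tpm1, both lay below (15.6%). The median difference was 0.079 for the members and 0.017 for all genes tested. The highest values were those of Ttn, Myot, Pdlim5 and Obsl1 (0.23 ± 0.18), and the lowest those of Neb (-0.28 ± 0.40), Lmod3 (-0.10 ± 0.14), Smpx (-0.072 ± 0.12) and Myom2 (-0.067 ± 0.19). For 29 members the 95% interval, unadjusted, lay inside a 2-fold change either way, the exceptions being Neb, Pdlim3 and Myot. The share of all genes tested with such an interval was not computed, here or for the counts below.

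Late pregnancy was addressed by day 19 against diestrus. An unadjusted p under 0.05 was found for 1 member, Lmod3, against 7.29% of all genes tested (3.7% higher and 3.59% lower). Above 0 stood 16 members, against 44.5% of all genes tested. With each array centred on its median these became 11 members and 33.1%. Both day 19 arrays were above diestrus in 8 members (16.4% of all genes tested) and below in 7 (20.4%), which divides the list almost evenly. The median was -0.0046, and -0.029 over all genes tested. The 8 higher were Flnc, Trim54, Myom2, Des, Capzb, Pdlim5, Fhl2 and Ablim1, and the 7 lower included 3 of the 4 thin filament regulators beside Lmod3, Nebl, Tmod1 and Smpx. The interval again lay inside 2-fold for 29 members. Without day 19 replicate 2, 23 members and 54.5% of all genes tested were above 0, and without replicate 1, 10 members and 40.7%.

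The state 1.5 days after birth was addressed by post-partum against diestrus. Flnc and Trim54 had an unadjusted p under 0.05 (6.62% of all genes tested; 3.38% higher and 3.24% lower). The number of such members depended on the fit and changed as single arrays were left out. The share of all genes tested was not computed for those fits, so these changes are not read as a result about the members. Both post-partum arrays were above both diestrus arrays in 14 members (43.8%; 21.1% of all genes tested) and below in 4, namely Lmod2, Lmod3, Tnnt2 and Tpm1 (21.7%). Above 0 stood 22 members, against 49.4% of all genes tested, or 18 members and 41.7% with each array centred on its median. Their median was 0.059 and that of all genes tested -0.0037. A difference of at least 0.3 in either direction was seen in 11 members, which leaves 65.6% of members under 0.3, against 80.0% of all genes tested. In the other 4 comparisons 78.1% to 93.8% of members were under 0.3, beside 75.8% to 91.4% of all genes tested. The interval lay inside 2-fold for 27, leaving out Pdlim3, Tcap, Synpo2l, Myot and Flnc.

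**Figure D5:**
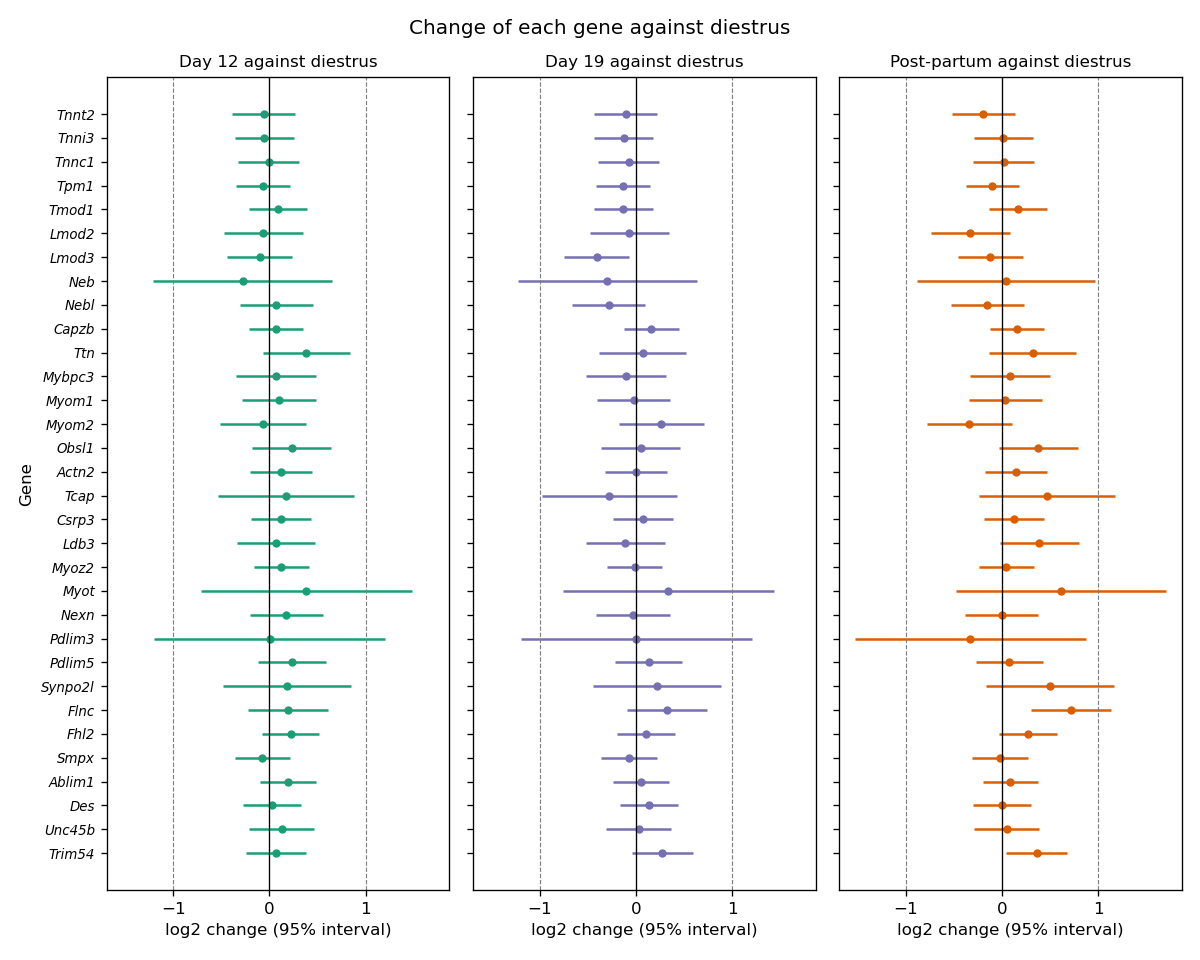
Log2 change of each member against diestrus in the 3 other states; points are limma estimates, bars are unadjusted 95% intervals, and dashed lines mark 2-fold. The intervals of Flnc and Trim54 lie above 0 post-partum and that of Lmod3 below 0 at day 19.

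The 2 successive steps share the day 19 arrays, so their values are set side by side only. From day 12 to day 19 no member had an unadjusted p under 0.05 (6.47% of all genes tested; 2.93% higher and 3.54% lower). Above 0 stood 8 members, against 42.8% of all genes tested; with median centring these became 5 members and 32.7%. Without day 19 replicate 2, 14 members were above 0, beside 50.1% of all genes tested. The number of members with an unadjusted p under 0.05 also changed as either day 19 array was left out. The share of all genes tested was not computed for that. Both arrays were higher in 3 members, Capzb, Trim54 and Myom2 (16.3%), and lower in 8 (23.2%), among them Nebl, Ttn, Lmod3 and Tmod1. Myom2 gave 0.33 ± 0.19, Trim54 0.21 ± 0.14, Flnc 0.13 ± 0.18 and Des 0.11 ± 0.13, and Tcap gave -0.45 ± 0.30. From day 19 to post-partum, Ldb3, Tcap and Myom2 had an unadjusted p under 0.05 (8.25% of all genes tested; 4.69% higher and 3.56% lower). Above 0 stood 25 members, against 52.3% of all genes tested. They became 17 (45.6%) without day 19 replicate 2 and 18 (55.3%) without post-partum replicate 2. Without day 19 replicate 1 there were 26 (57.9%), and without post-partum replicate 4 there were 24 (51.0%). The 3 members under 0.05 became 0 with array weights, and their number also changed as single arrays were left out. The share of all genes tested was not computed for those fits. Both arrays were higher in 9 members (19.0%) and lower in 2, Myom2 and Des (14.3%). Flnc gave 0.39 ± 0.18, Neb 0.34 ± 0.40, Des -0.14 ± 0.13, Lmod2 -0.26 ± 0.18 and Pdlim3 -0.34 ± 0.52.

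Other genes of the sarcomere were read from a list of 61, covering motor proteins, further isoforms, Z-disc partners and assembly factors; 60 were measured and 58 tested. None passed the threshold in any comparison. Unadjusted, 1 was higher at day 12 and none lower, 5 were higher and 1 lower at day 19, and 3 were higher and none lower post-partum, all against diestrus. Among all genes tested 1.22% were higher and 1.1% lower at day 12, 3.7% and 3.59% at day 19, and 3.38% and 3.24% post-partum. The 5 at day 19 were the slow myosin Myh7 (2.65 ± 0.35), the stretch-responsive titin partners Ankrd1 (0.72 ± 0.25) and Ankrd2 (0.81 ± 0.25), Tnnt3 (0.35 ± 0.15) and the beta-tropomyosin Tpm2 (0.53 ± 0.20). The intermediate filament protein Synm gave -0.51 ± 0.19. Post-partum, the 3 were skeletal actin Acta1 (1.37 ± 0.43), Myoz3 (0.43 ± 0.15) and Tnnt3 (0.36 ± 0.15). The median of this list was 0.010 at day 19 and 0.11 post-partum, beside -0.0046 and 0.059 for the members.

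Replicates of the members differed by a median of 0.085 within the diestrus pair, 0.14 within day 12, 0.17 within day 19 and 0.19 within the post-partum pair, beside 0.13, 0.12, 0.24 and 0.19 for all genes tested. Only 1 to 4 members in a group had replicates more than 0.5 apart, the largest gaps being Pdlim3 in diestrus and at day 12 (0.83 each), Myot at day 19 (1.64) and Neb post-partum (1.05). The median absolute difference between a state and diestrus was 0.101 for all genes tested at day 12, 0.155 at day 19 and 0.150 post-partum, and 0.0997, 0.109 and 0.149 for the members. The typical standard error of a difference was 0.15 for the members and 0.17 for all genes tested.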

How the data were processed

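RNA of 8 left ventricle samples (100 ng each) was measured on 1-colour arrays. The authors deposited log2 values, 1 for each probe set. The submitters' processing notes name RMA and Affymetrix Expression Console. Their versions and the build were not given in the sources used here. RMA equalises the arrays, so shifts shared by most genes are removed. Of 34365 probe sets, 23521 had 1 gene symbol, 1814 several, and 9030 were unnamed here. The probe set of highest mean was kept for each of 22180 genes. Genes with at least 1 group mean at or above 5.19, the median of all values, were tested. The fit used limma 3.58.1 (R 4.3.3) on the 8 arrays, with a mean for every group (4 residual and 3.68 prior degrees of freedom), two-sided, with Benjamini-Hochberg adjustment over 13872 genes and a threshold of 0.05. It was also run on simulated data, with changes larger than that of any member and no outlying array. That run therefore does not show how the fit treats changes of the size seen here. The number of arrays limits the precision. Log2 changes with errors are given for the 4 highest and 4 lowest members of each comparison and for any with an unadjusted p under 0.05; errors for Tmod1, Obsl1, Flnc (day 12), Des (day 19) and Ldb3 (post-partum against diestrus) and the per-array values of Tmod1, Capzb and Fhl2 were added after their values were seen. Alternatives covered array weights, variance model, filters, probe sets, scaling, fewer groups, each array left out and a replicate block. Members and lists were chosen with earlier results of these data known.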

Additional observations from a re-analysis of the deposited data

How the results depend on the processing

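No member passed the threshold under any alternative run. For all genes, 0 calls became 1 with array weights at day 12 against diestrus, and 1 with a trended robust variance, with the stricter filter (mean of at least 6) and with quantile normalization for post-partum against day 19. With each array left out, calls ranged from 0 to 1 at day 12, 0 to 1233 at day 19 and 0 to 3 post-partum against diestrus, from 0 to 1312 for day 19 against day 12 and from 0 to 872 for post-partum against day 19; the counts of 1233, 1312 and 872 came without day 19 replicate 1. Replicate numbers are shared by 2 pairs in day 12 and diestrus only; with the replicate block 18 genes were called, none a member, and the correlation of same-numbered deviations was 0.22. The other comparisons share fewer than 2 numbers.

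2 alternatives were chosen after seeing the data. Without the 3 arrays high in atrial markers, where 3 of the groups keep 1 array and the spread comes from the post-partum pair alone, the calls were 327 for day 19 against diestrus, 282 against day 12 and 346 for post-partum against day 19. In that setting Neb turned to 0.11 at day 12, Tcap to 0.44, Myot to -0.44 at day 19 and Pdlim3 to 0.082 post-partum, all against diestrus, Flnc to -0.050 for day 19 against day 12 and Pdlim3 to 0.45 for post-partum against day 19. Members above 0 then numbered 25, 10 and 20 against diestrus, 4 for day 19 against day 12 and 26 for post-partum against day 19, beside 54.2%, 40.8%, 48.6%, 40.2% and 57.9% of all genes tested. Relative to the other cardiomyocyte genes the mean of the members was -0.00075 for post-partum against diestrus and -0.10 against day 19; day 19 against day 12 turned from -0.082 to 0.053.

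Of 41 member values, 9 changed sign with 1 array left out. Against diestrus the ranges were -0.31 to 0.18 for Myom2 and -0.15 to 0.0026 for Smpx at day 12, -0.74 to 0.15 for Neb, -0.67 to 0.12 for Tcap and -0.48 to 1.16 for Myot at day 19, and -0.74 to 0.082 for Pdlim3 post-partum. They were -0.012 to 0.27 for Flnc in day 19 against day 12, and -0.19 to 0.86 for Neb and -1.13 to 0.45 for Pdlim3 in post-partum against day 19. The cause of these shifts was not tested. Array number limits what can be seen.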
